A study of Mus musculus with 10 samples.

Results

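The transcriptomes of 4 MYC/SMARCA4 tumors and 3 SHH medulloblastomas (SHH MB) of mice were compared, which are 7 of the 10 libraries of the study and were taken by their titles. All 50559 genes in the count files belong to the comparison, and the 29952 genes that passed a filter on low counts were tested. The MYC/SMARCA4 tumors arose from granule cell precursors (GCPs) of Math1-creERT2::Smarca4fl/fl pups, in which 0.4 mg tamoxifen at postnatal day 3 (P3) removed Smarca4 from cells that use the Math1 (Atoh1) promoter. The GCPs were transduced in culture with a lentivirus that carries murine Myc and were transplanted into cerebella of CD1nu/nu mice, which lack a thymus. Tumors 1 to 4 were taken from mice labelled as 112, 96, 89 and 79 days old, in this order. SHH MB grew in place in Math1-cre::Smofl/wt mice, where Cre in the same lineage switches on an active form of the receptor Smo, and were taken at 7 days. The other 3 libraries, P7 cerebella of Math1-creERT2::Smarca4fl/fl pups given the same tamoxifen dose, entered the estimate of the spread but no comparison. RNA of both tumor kinds came from formalin-fixed tissue (FFPE), from punches in the case of MYC/SMARCA4 tumors. Driver genes, age, host strain and transplantation differ between the 2 groups at once and cannot be told apart.

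GCPs divide in the outer layer of the young cerebellum while they receive the ligand SHH, and then migrate inward as granule neurons. SHH binds the receptor Ptch1, which then no longer holds back Smo, and the GLI transcription factors switch on target genes such as Gli1, Ptch1, Hhip, Mycn and Ccnd1. MYC binds DNA with its partner MAX at E-boxes and raises genes for ribosome assembly, nucleotide synthesis and glycolysis in many tumors. SMARCA4 is an ATPase that drives the BAF chromatin remodeling complex.

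Between 5663491 and 9352109 reads were counted per library, and 3 counts, used as the floor of detection, correspond to 0.366 to 0.744 counts scaled to the effective library size (CPM) in the tumors. Levels are given as CPM or log2 CPM after TMM scaling. Fold changes come from edgeR's quasi-likelihood test, with p-values adjusted by the Benjamini-Hochberg method over all genes tested, and a negative value means lower in MYC/SMARCA4 tumors. Nothing in the labels says whether the 3 SHH MB came from separate litters, so that p-values measure a spread between libraries only. That spread is 1 estimate per gene pooled over all 10 libraries, although the groups differed in it. Chi-square per degree of freedom was 31.9 to 124 between pairs of tumors and 4.29 to 6.48 between pairs of SHH MB. Mitochondrial genes took 2.29% to 6.36% of counts in the tumors and 1.25% to 1.52% in SHH MB. Genes resembling ribosomal RNA took 1.52% to 1.96% and 0.604% to 0.872%, and the part of both differences in the results was not tested. Tumor 1 stood apart from the other tumors. The 26 listed genes of mitosis had mean levels of 2.78, 6.24, 6.21 and 6.37 log2 CPM in tumors 1 to 4 and 6.17 to 6.38 in SHH MB. Tumor 1 also had the lowest level of Myc and the highest mean levels of the listed genes of mature granule neurons, Purkinje cells and mature oligodendrocytes, whereas tumor 3 had the lowest of these 3 lists. In bulk tissue, fewer cells of a type and less RNA per cell cannot be told apart. Counts of lists that change most without tumor 1 are therefore given with and without it.

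The altered genes were examined first. Myc lies on chromosome 15 of GRCm39 (chr15:61857227-61862223, plus strand). Its levels were 152, 368, 1587 and 1016 CPM in tumors 1 to 4 and 38.4, 33.7 and 45.7 CPM in SHH MB 1 to 3, a log2 fold change of 4.31 (SE 0.69, adjusted p = 0.00428). Every tumor lay above every SHH MB, and tumors 3 and 4 lay far above tumors 1 and 2. Counts of the transduced and the endogenous Myc cannot be told apart. Smarca4 (chr9:21527398-21615526, plus strand) was measured at 208, 244, 136 and 238 CPM in tumors and 546, 491 and 589.7 CPM in SHH MB, without overlap of the groups. Its log2 fold change of -1.39 (SE 0.28, adjusted p = 0.0157) passed 0.05 but not the call threshold. The adjusted p ranged from 9.08e-05 to 0.122 over 17 alternative analyses and did not pass when the 7 libraries were fitted alone, with a block for the replicate number, or without any one of the 3 SHH MB. No other library has the number of tumor 4, so that this block in effect takes tumor 4 out of the comparison. Reads of the floxed exons were not counted apart from the rest of the gene, and recipient cells in a punch carry an intact gene. Smo, the gene activated in SHH MB, had 14.1, 115, 111 and 108 CPM in tumors and 124, 123 and 129.8 CPM in SHH MB (-0.52, adjusted p = 0.594). Tumors 2 to 4 and SHH MB lay close together, and tumor 1 was far below.

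Mycn, a GLI target and paralog of Myc, had 1.24, 9.0, 9.23 and 4.03 CPM in the tumors and 196, 178 and 203 CPM in SHH MB, a log2 fold change of -5.01 (SE 0.49, adjusted p = 0.000147). Mycl, the other paralog, was 15.4 to 64.9 CPM in tumors and 99.4 to 137 CPM in SHH MB (-1.58, adjusted p = 0.0321). All 4 tumors therefore lay above SHH MB in Myc and below SHH MB in both paralogs. Of the 12 listed genes of the MYC and MAX network, no further gene passed with all tumors, and 3 passed as higher and 2 as lower without tumor 1. Their partner Max had a log2 fold change of 0.90 (adjusted p = 0.0689).

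A gene was called if its log2 fold change reached 2.5 in size and its adjusted p was 0.01 or less. By this rule 37 genes (0.124% of those tested) were higher and 143 (0.477%) were lower in MYC/SMARCA4 tumors. At an adjusted p of at most 0.05 with no threshold on the fold, 727 genes (2.43%) were higher and 676 (2.26%) lower. Without tumor 1 these shares were 5.91% and 3.86%. All counts of list members that rose or fell below are to be set beside these shares. The median log2 fold change of all genes tested was 0.01. With total counts and no scaling factors it was -0.22, with 431 genes higher and 908 lower. A further 360 genes had a fitted log2 fold change of 2.5 or more without passing the adjusted p, against 57 on the lower side. Without tumor 1 the calls were 100 higher and 159 lower, of which 31 and 129 were among the calls with all 4 tumors. Without tumor 3 they were 280 higher and 403 lower, and without any one SHH MB 6 to 11 higher and 85 to 100 lower. Some genes that stayed past 0.05 under every alternative that tested them are given below as such, since many smaller changes did not. Such a gene was tested by 17 alternatives or, with under 10 counts in some library, by 16. Other genes stayed past 0.05 in this way without a remark below, among them Mycn, Cxcr4, Irs1 and Smarcd2. Among the calls, 28 higher and 105 lower genes were protein coding, and 2 higher and 17 lower genes were long noncoding RNAs. The median difference of the 37 higher genes from the SHH MB mean was 3.59, 3.23, 2.31 and 3.00 on the log2 scale in tumors 1 to 4, and that of the 143 lower genes was -3.47, -3.21, -3.25 and -3.03. These medians are over genes chosen by the call and are given as a description.

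**Figure D1:**
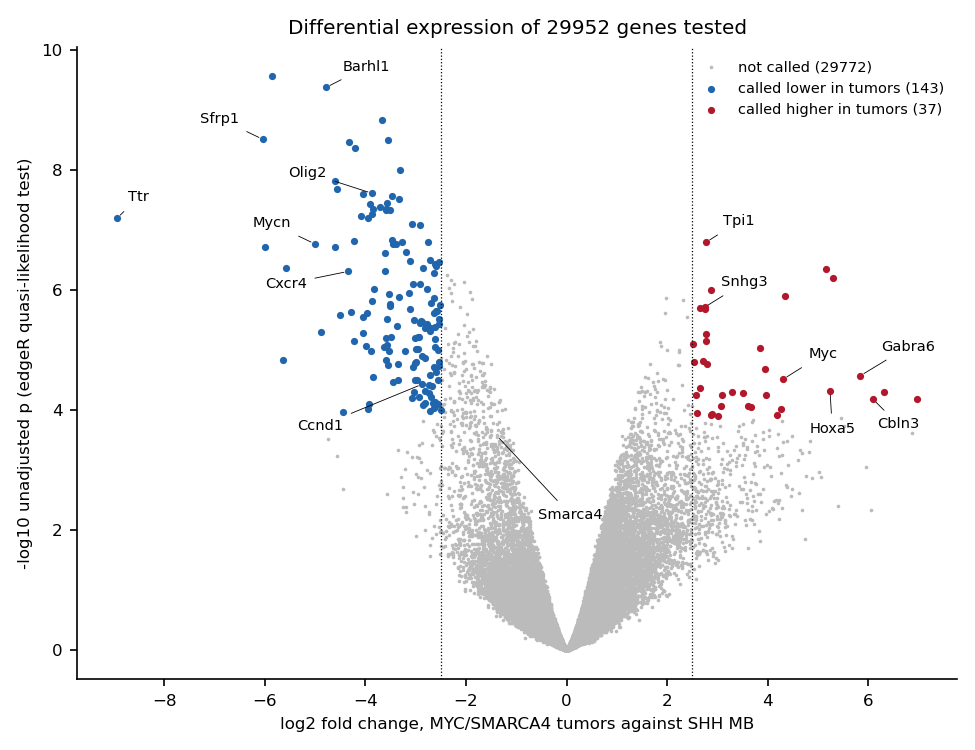
Log2 fold change of 29952 genes (x axis) against -log10 of the unadjusted p (y axis) for 4 MYC/SMARCA4 tumors against 3 SHH MB, 1 point per gene, with dotted lines at log2 fold changes of -2.5 and 2.5. The 143 genes called lower (blue) reach smaller p-values than the 37 called higher (red).

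Receptors and targets of the Hedgehog pathway were lower in MYC/SMARCA4 tumors. Of 22 listed genes, 5 fell and 1 rose at an adjusted p of 0.05. Without tumor 1, 10 fell and 2 rose, when 3.86% and 5.91% of all genes passed. Of the 5 decreases with all tumors 1 stayed past 0.05 under every alternative. With the 7 libraries alone or without SHH MB 1 or 2, 2 genes fell, and without SHH MB 3 it was 1. A lower fitted level was found in 19 of the 22 genes (49.6% of all genes tested), and the median log2 fold change was -1.03. In 13 of the 22 genes every tumor lay below every SHH MB and in 1 every tumor lay above, which was the case for 8.3% and 7.83% of all genes tested. Ptch1 (chr13:63656142-63721412, minus strand), the receptor and a target, had 186, 266, 118 and 489 CPM in the tumors and 1121, 1294 and 1505 CPM in SHH MB, a log2 fold change of -2.30 (SE 0.42, adjusted p = 0.00876). Tumor 4 kept the highest level of the receptor and tumor 3 the lowest, and no tumor reached a SHH MB.

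Hhip, a target that binds and traps the ligand, was 7.44, 17.1, 10.9 and 58.8 CPM in tumors and 93.7 to 109 CPM in SHH MB (-2.10, adjusted p = 0.0431). Gli1, the GLI factor whose transcription depends most on the pathway, was 8.43, 47, 58.2 and 112 CPM against 191, 155 and 175 CPM. The groups did not overlap, yet the log2 fold change of -1.62 did not pass (adjusted p = 0.113, 0.0149 to 0.319 over 17 alternatives). Tumor 1 held the lowest level, and without it the log2 fold change was -1.28 (adjusted p = 0.0149). Gli2, the main activator, and Gli3, the main repressor, had log2 fold changes of -1.51 (adjusted p = 0.136) and -1.26 (adjusted p = 0.169).

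Among coreceptors of the ligand, Boc was lower (-2.30, adjusted p = 0.0147) and Cdon higher (2.03, adjusted p = 0.028), and Gas1 had -1.05 (adjusted p = 0.0673). Cdon was the listed gene that rose, with 355, 131, 68.1 and 279 CPM in tumors and 43.6, 53.8 and 55.1 CPM in SHH MB. The 2 coreceptors thus moved in opposite directions, both without overlap. The ciliary receptor Gpr161, which restrains the pathway, also fell (-1.25, adjusted p = 0.0409). Sufu, Kif7, Disp1, Evc and Spop did not pass. The adjusted p of Ptch1, Hhip, Boc and Gpr161 exceeded 0.05 in 1, 5, 4 and 6 of 17 alternatives, in this order.

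**Figure D2:**
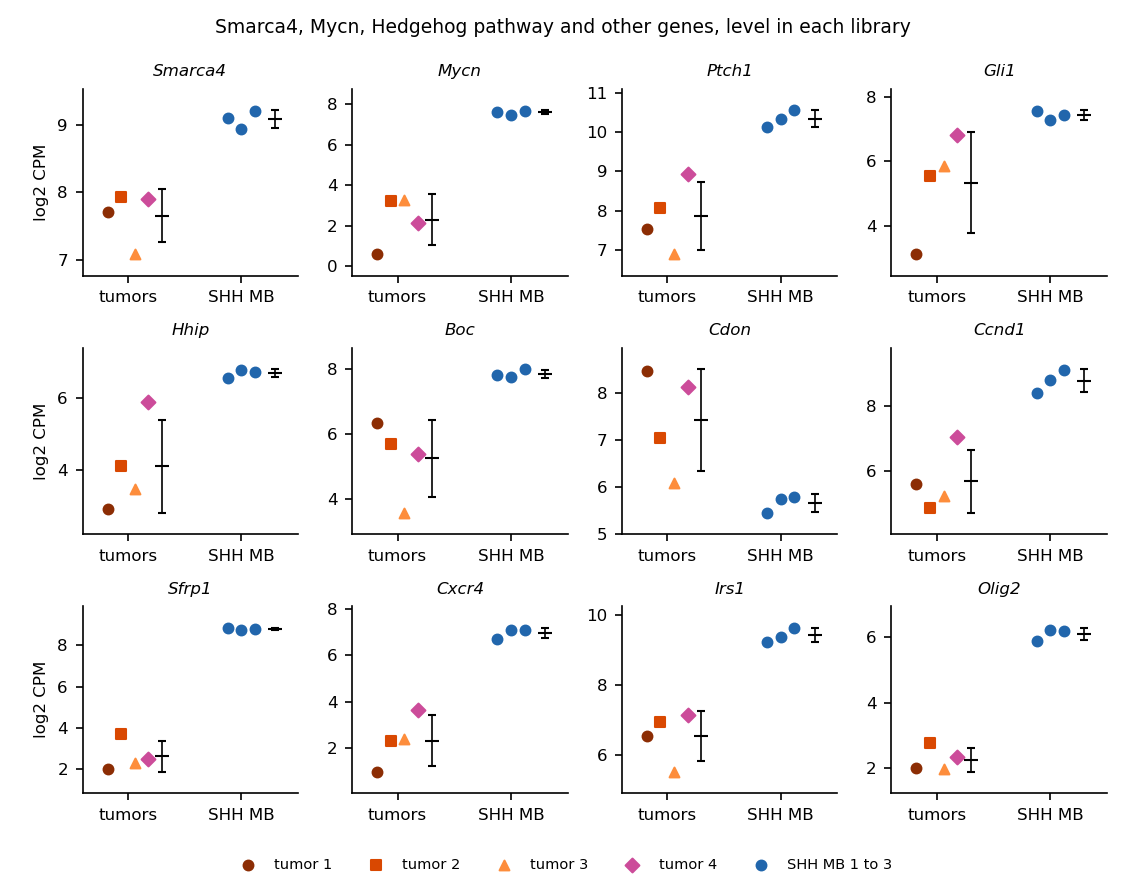
Log2 CPM (y axes) of 12 genes in each library, with tumors 1 to 4 as separate symbols, SHH MB 1 to 3 as blue circles, and black bars for mean ± SD of each group (n = 4 and n = 3). All tumors lie below all SHH MB in each panel other than Cdon, where all lie above, and tumor 1 is lowest for Mycn, Gli1, Hhip, Sfrp1 and Cxcr4.

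Ccnd1 and Ccnd2, both cyclins of the G1 phase, showed different patterns. Ccnd1, a target of GLI and WNT signals, had 47.6, 28.4, 36.9 and 133 CPM in tumors and 343, 452 and 562 CPM in SHH MB, a log2 fold change of -2.87 (SE 0.47, adjusted p = 0.00485). Ccnd2, used by dividing GCPs, ranged from 27.8 to 1672 CPM in the tumors and from 578 to 666 CPM in SHH MB (0.09, adjusted p = 0.965). Tumors 2 and 3 were above SHH MB in Ccnd2, and tumors 1 and 4 below. Cdk6, a kinase partner of both cyclins, had 11.9, 175, 167 and 328 CPM against 676, 792 and 834 CPM. Its log2 fold change was -2.17 (adjusted p = 0.0873, 0.00292 to 0.251 over the alternatives), with every tumor below every SHH MB. Of 16 listed G1 cyclins and CDK inhibitors, Ccnd1 alone passed with all tumors, and 3 passed as lower without tumor 1.

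The tumors were made from GCPs, and transcription factors of the granule cell lineage were compared next. Of 26 listed factors, 7 fell and 2 rose (10 and 3 without tumor 1), with a median of -0.71. Over all genes tested 2.26% fell and 2.43% rose (3.86% and 5.91% without tumor 1). Barhl1, a homeobox factor of GCPs and granule neurons, had 17.8, 11.2, 12.6 and 11.6 CPM in tumors against 314, 363 and 415 CPM in SHH MB, a log2 fold change of -4.78 (SE 0.29, adjusted p = 6.31e-06). Its 4 tumor values lay closer together than those of Atoh1, the factor that defines GCPs, which had 0.496, 24.7, 31.5 and 3.42 CPM against 97.9, 114 and 139 CPM. The log2 fold change of Atoh1 was -2.95 (adjusted p = 0.0521, 0.00324 to 0.18 over the alternatives). Tumors 1 and 4 were nearly without Atoh1, and tumors 2 and 3 lay between them and SHH MB. Zic1, a factor kept from GCPs to granule neurons, was well detected in all tumors, with 899.8, 609, 272 and 281 CPM against 779 to 909 CPM (-0.68, adjusted p = 0.383), and Pax6 had 83.3, 135, 47 and 43.9 CPM against 154 to 206 CPM (-1.19, adjusted p = 0.0832).

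Nhlh1 (-3.89, adjusted p = 0.00212) and Nhlh2 (-3.60, adjusted p = 6.59e-05), factors of newly born neurons, fell together, as did Tlx3 (-3.60, adjusted p = 0.00277). Uncx (-1.82, adjusted p = 0.0122), Meis1 (-1.26, adjusted p = 0.0354) and Zic4 (-1.18, adjusted p = 0.0371) fell by less. Meis2 was among the increases, with 11.7, 96.8, 87.5 and 93.3 CPM against 5.91, 10.3 and 16.9 CPM (2.71, adjusted p = 0.0252). Tumors 2 to 4 were high and tumor 1 lay within the range of SHH MB. Eomes, a marker of unipolar brush cells of the rhombic lip, had 8.43, 74.3, 42.5 and 11.3 CPM against 7.07 to 7.62 CPM (2.23, adjusted p = 0.0617). Barhl1, Nhlh1, Nhlh2 and Tlx3 stayed past 0.05 under every alternative.

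Genes of immature migrating neurons were lower in MYC/SMARCA4 tumors, with 14 of 28 listed genes falling and none rising (16 and 0 without tumor 1) and a median of -1.37. In 19 of them every tumor lay below every SHH MB, against 8.3% of all genes tested, of which 2.26% fell. Dcc, a netrin receptor for axon guidance, had 4.96, 14.4, 11.2 and 104 CPM against 678, 690.5 and 854 CPM, a log2 fold change of -4.45 (SE 0.81, adjusted p = 0.00896). Cxcr4, the receptor that holds GCPs at the pial surface, had 1.74, 4.68, 5.04 and 12.2 CPM against 103, 134 and 135 CPM, a log2 fold change of -4.35 (SE 0.47, adjusted p = 0.00030). Dcx, a microtubule protein of migrating neurons, ranged from 9.09 to 67.6 CPM in tumors and from 491 to 539 CPM in SHH MB (-3.98, adjusted p = 0.00192). Tumor 4 was highest of the tumors for all 3 genes, and the groups stayed apart.

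Islr2, a membrane protein of growing axons, fell by a log2 fold change of -4.56 (adjusted p = 6.12e-05), and GENCODE places the neighbour Islr on the same strand across it. Draxin, a guidance cue, had -3.92 (adjusted p = 0.00736), Nav1, a microtubule protein, -3.60 (adjusted p = 0.000185), and Robo2, a Slit receptor, -2.23 (adjusted p = 0.00355). Tubulins of young neurons changed less, with -1.08 (adjusted p = 0.0407) for Tubb3 and -2.21 (adjusted p = 0.0286) for Tubb2b. Cntn2, an adhesion protein of axons in the inner layer of GCPs, was 494, 139, 51.1 and 103 CPM in tumors and 181 to 283 CPM in SHH MB (-0.24, adjusted p = 0.852). It was highest in tumor 1 and below SHH MB in the other 3 tumors.

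Neural progenitor and glial factors were also lower, with 11 of 27 listed genes falling and none rising (14 and 0 without tumor 1) and a median of -1.16. Falling genes made up 2.26% of all genes tested (3.86% without tumor 1). Olig2, a factor of oligodendrocyte lineage and of progenitors within SHH MB, had 3.72, 6.48, 3.64 and 4.76 CPM against 58.5, 73.8 and 72.9 CPM, a log2 fold change of -3.87 (SE 0.32, adjusted p = 6.28e-05). Sox9, a factor of glia and neural stem cells, was at 9.92, 29.9, 3.22 and 22.7 CPM against 171, 185 and 222 CPM (-3.55, adjusted p = 0.00294). Both genes were low in all 4 tumors, with tumor 2 highest.

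Fabp7, a lipid-binding protein of radial glia (-3.96, adjusted p = 0.00838), the growth factor receptor Egfr (-3.61, adjusted p = 0.000299) and the intermediate filament Nes (-2.49, adjusted p = 0.00262) fell as well. So did Nfia (-2.28, adjusted p = 0.00294) and Nfib (-1.45, adjusted p = 0.039), factors that promote glial and granule neuron differentiation, and Etv4 (-1.98, adjusted p = 0.00637) and Etv5 (-2.82, adjusted p = 0.00257), factors downstream of FGF and EGF signals. Sox2, a stem cell factor, was 6.2, 23.6, 14 and 60.7 CPM in tumors and 36.4 to 38.8 CPM in SHH MB (-0.50, adjusted p = 0.643). Tumor 4 lay above all SHH MB in Sox2, and the others below. Of the 11 genes 9 stayed past 0.05 under every alternative, Nfib and Olig1 being the exceptions.

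Of 12 listed genes of oligodendrocyte precursors, 5 fell (8 without tumor 1), among them C1ql1, a synaptic organizer, (-3.91, adjusted p = 6.59e-05) and Gpr17 (-2.71, adjusted p = 0.00132). Over all genes tested 2.26% fell (3.86% without tumor 1). Pdgfra, the growth factor receptor that marks these cells, was 18.1, 142, 103 and 81.1 CPM against 159.9 to 166 CPM (-0.92, adjusted p = 0.295). Among 17 genes of astrocytes and Bergmann glia, 3 fell and 2 rose, with the GABA transporter Slc6a11 (-2.74, adjusted p = 0.0057) and the endothelin receptor Ednrb (-2.30, adjusted p = 0.0187) lower and the connexin Gjb6 (2.51, adjusted p = 0.0245) higher. Gfap, the filament of astrocytes, was 104, 177, 16.8 and 108 CPM in tumors and 73.1 to 118 CPM in SHH MB (0.15, adjusted p = 0.905).

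In the Notch pathway 5 of 25 listed genes fell and none rose, with a median of -0.14. Over all genes tested 2.26% fell and 2.43% rose. The ligand Dll3 (-2.99, adjusted p = 0.00286), the modifier Lfng (-1.85, adjusted p = 0.0202) and the targets Hes1 (-2.02, adjusted p = 0.00507), Hey1 (-2.03, adjusted p = 0.0194) and Heyl (-1.35, adjusted p = 0.0177) fell, and the receptor Notch1 had -0.97 (adjusted p = 0.145). Dll3 and Hes1 stayed past 0.05 under every alternative. Of 22 listed WNT inhibitors and targets, 6 fell, 5 of them under every alternative. Sfrp1, a secreted WNT antagonist and marker of human SHH MB, had 3.72, 12.6, 4.76 and 5.37 CPM in tumors and 455, 427 and 433 CPM in SHH MB, a log2 fold change of -6.04 (SE 0.43, adjusted p = 1.72e-05). This was a wide gap between the groups, with tumor 2 highest among the tumors. Nkd1, an inhibitor induced by WNT, fell too (-3.51, adjusted p = 0.000713), whereas Axin2, the general WNT target, did not pass (-0.78, adjusted p = 0.172).

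In the insulin-like growth factor axis 1 of 16 genes fell and 1 rose (1 and 2 without tumor 1), where 2.26% and 2.43% of all genes did so. Irs1, the docking protein that links the receptor to PI3K, had 92.5, 124, 45.9 and 142 CPM against 605, 669.9 and 792 CPM, a log2 fold change of -2.77 (SE 0.36, adjusted p = 0.00111). Igf2r, which clears the ligand IGF2, rose from 65.1 to 74.1 CPM in SHH MB to 125 to 204 CPM in the tumors (1.22, adjusted p = 0.0191). The other 14 listed genes did not pass.

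Extracellular matrix genes were lower in 11 of 34 cases and higher in 1 (16 and 2 without tumor 1), with a median of -0.80. The shares over all genes tested were 2.26% and 2.43% (3.86% and 5.91% without tumor 1). Ncan, a proteoglycan of the young brain, had 28, 74.5, 15.3 and 67.7 CPM against 412, 422 and 452 CPM, a log2 fold change of -3.21 (SE 0.46, adjusted p = 0.0021). Tnc, an adhesion-modulating glycoprotein (-4.04, adjusted p = 6.28e-05), Eln, the core of elastic fibres (-3.96, adjusted p = 7.62e-05), Mfap4, a microfibril protein (-4.29, adjusted p = 0.000821), and the collagens Col9a3 (-3.55, adjusted p = 1.72e-05) and Col11a1 (-3.84, adjusted p = 6.59e-05) fell. Hapln4, a link protein of perineuronal nets on mature neurons, rose (3.76, adjusted p = 0.0156). Of the 11 decreases 10 stayed past 0.05 under every alternative. Among 14 mesenchymal factors Zeb1 fell and Twist1 rose. Zeb1, a repressor that keeps GCPs from differentiating, had 618, 339.6, 106 and 338 CPM against 2044, 2083 and 2465 CPM, a log2 fold change of -2.65 (SE 0.46, adjusted p = 0.00727).

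Ribosome assembly factors were higher in tumors 2 to 4. All 55 listed genes had a higher fitted level, with a median log2 fold change of 1.04, against 50.4% of all genes tested. With 4 tumors 8 of the 55 passed 0.05, and without tumor 1 it was 48, when 5.91% of all genes passed as higher. Averaged over the list, levels came to 5.22, 6.26, 6.31 and 6.76 log2 CPM for tumors 1 to 4 and 5.27 to 5.34 for SHH MB. Tumor 1 lay below the SHH MB and the other 3 tumors above. The count was 0 without tumor 2, without tumor 4 or without any one SHH MB. It was also 0 with the 7 libraries fitted alone, with the replicate block, which in effect leaves out tumor 4 too, and with total counts. With limma it was 2, without tumor 3 it was 13 and with DESeq2 26. None of the 8 stayed past 0.05 under every alternative, while the median stayed between 0.70 and 1.23 over 17 alternatives.

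The nucleolar protein Ncl had 541, 938, 1147 and 1366 CPM against 488, 449 and 516 CPM (1.04, adjusted p = 0.104), and Npm1, a chaperone of ribosomal proteins, 124, 362, 538 and 681 CPM against 145, 147 and 176 CPM (1.45, adjusted p = 0.091). Among those that passed were Gnl3, a GTPase of the nucleolus (1.47, adjusted p = 0.0349), Rrp9, part of the small subunit processome (1.64, adjusted p = 0.0308), Rrp12 (1.27, adjusted p = 0.0313), Bop1, which acts in the large subunit (1.26, adjusted p = 0.0435), and Polr1c, a subunit of RNA polymerases I and III (1.17, adjusted p = 0.0324). Fbl, the methyltransferase of box C/D snoRNPs, did not pass (0.55, adjusted p = 0.414). In most listed genes tumor 1 was the lowest and tumor 4 the highest of the tumors, as for Ncl and Npm1.

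MYC with MAX binds the E-box CACGTG, which reads alike on both strands. RefSeq promoter windows on GRCm38.p6, from 250 bases before to 50 after each gene start, were searched for these letters. They occurred in 7.15% of all 32851 windows, in 8.06% of windows of genes tested and in 10 of 57 windows (17.5%) of the ribosome assembly list. Genes called higher had 4 of 33 windows (12.1%) and those called lower 6 of 123 (4.88%). Of lists described below, host genes of snoRNAs had 7.69% (1 of 13), glycolysis 12.5% (5 of 40) and nucleotide synthesis 13.8% (4 of 29). These counts of windows are small, and differences between the shares were not tested. In 4 of the 10 ribosome assembly genes with a match, one lay before the start. The 150 bases before the start of these 4 genes are given below 5′ to 3′ on the strand of the gene, with the E-box in capitals, to show where it lies relative to the start at the right end.
Imp4 (chr1:34439679-34439828, plus strand): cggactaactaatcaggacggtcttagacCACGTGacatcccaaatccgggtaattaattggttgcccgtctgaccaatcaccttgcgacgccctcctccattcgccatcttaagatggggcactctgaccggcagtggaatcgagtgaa
Nop2 (chr6:125131733-125131882, plus strand): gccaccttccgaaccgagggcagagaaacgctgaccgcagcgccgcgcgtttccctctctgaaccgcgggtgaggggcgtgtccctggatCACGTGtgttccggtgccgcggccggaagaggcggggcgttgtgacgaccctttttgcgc
Utp18 (chr11:93885767-93885916, minus strand): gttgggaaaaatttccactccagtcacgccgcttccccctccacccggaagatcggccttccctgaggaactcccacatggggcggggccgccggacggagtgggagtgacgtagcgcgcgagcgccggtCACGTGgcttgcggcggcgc
Rrn3 (chr16:13780549-13780698, plus strand): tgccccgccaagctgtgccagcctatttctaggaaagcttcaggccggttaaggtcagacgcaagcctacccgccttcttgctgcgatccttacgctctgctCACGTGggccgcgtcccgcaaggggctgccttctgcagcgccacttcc
The E-box began 20 bases before the start in Utp18, 48 in Rrn3, 60 in Nop2 and 121 in Imp4, and Rrn3 held another 215 bases before the start, outside the stretch shown. Imp4, a processome subunit, passed with all tumors (1.31, adjusted p = 0.040), and Nop2, an rRNA methyltransferase, had 1.28 (adjusted p = 0.0694). Utp18 had 0.72 (adjusted p = 0.169), and Rrn3, an initiation factor of RNA polymerase I, 0.55 (adjusted p = 0.233). A match of letters does not show binding. For the GLI motif GACCACCCA, searched on both strands, 0.253% of all windows and 0 of 20 windows of the Hedgehog list held a match.

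Host genes of small nucleolar RNAs (snoRNAs), which guide rRNA modification, were higher as well. Of 15 listed hosts all had a higher fitted level, 11 passed 0.05 with and without tumor 1, and the median was 1.5. Zfas1 had 58, 55.4, 55.3 and 57.7 CPM in tumors and 11.7, 16.1 and 15.9 CPM in SHH MB, a log2 fold change of 1.95 (SE 0.24, adjusted p = 0.000835). Snhg3 was 28, 23.8, 16.5 and 27.9 CPM against 3.11, 4.71 and 2.84 CPM, a log2 fold change of 2.74 (SE 0.34, adjusted p = 0.000733). In both hosts tumor 1 lay within or just above the range of the other tumors, and the groups did not overlap. Gas5 (1.23, adjusted p = 0.0109), Snhg4 (1.95, adjusted p = 0.00435) and Snhg15 (2.22, adjusted p = 0.00292) rose too, and Zfas1, Snhg3, Snhg4 and Snhg15 stayed past 0.05 under every alternative. Genes resembling ribosomal RNA also took a larger share of counts in all tumors than in any SHH MB. Among the tumors the order differed. Their share was highest in tumor 4 (1.96%), while the summed level of the hosts was 968.8 CPM in tumor 1 and 685.4 CPM in tumor 4. With rRNA-like and mitochondrial genes left out of the library sizes, 11 of the 15 hosts passed and the median was 1.43. The part of such genes in the result beyond library size was not tested. Hosts share their loci with the snoRNAs in their introns, and the strand setting of the counting is not given in the sources used here.

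**Figure D3:**
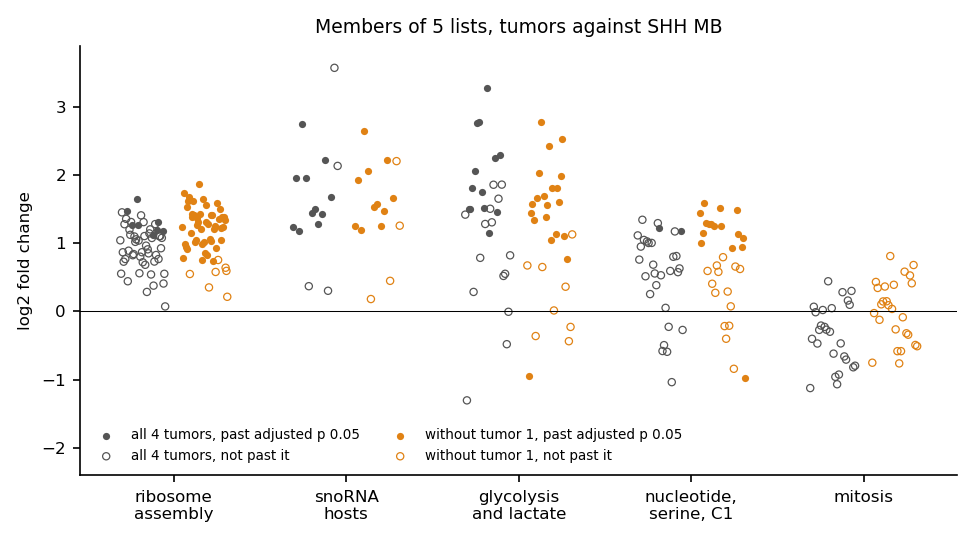
Log2 fold change (y axis) of each tested member of 5 gene lists (x axis), 1 point per gene, with 4 tumors in grey and without tumor 1 in orange, and filled points for an adjusted p of at most 0.05. The share of filled points grows without tumor 1 for ribosome assembly, from 8 to 48 of 55, while mitosis holds none in either fit.

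Enzymes from the upper to the lower part of glycolysis were higher. Of 28 listed genes of glycolysis and lactate, 13 rose and none fell (19 and 1 without tumor 1), with a median of 1.5. Rising genes made up 2.43% of all genes tested (5.91% without tumor 1). Tpi1, triose phosphate isomerase, had 212, 258, 187 and 206 CPM against 25.8, 32.6 and 35.9 CPM, a log2 fold change of 2.78 (SE 0.27, adjusted p = 0.000147). It was at a similar level in all 4 tumors and was the one gene of this list past 0.05 under every alternative. Upstream enzymes Gpi1 (1.51, adjusted p = 0.00554), Pfkl (1.5, adjusted p = 0.0102) and Aldoa (2.06, adjusted p = 0.011) and downstream Pgk1 (1.75, adjusted p = 0.014) and Pkm (1.15, adjusted p = 0.035) rose as well.

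Pdk1, a kinase of pyruvate dehydrogenase, was 37.9, 56.1, 49.7 and 193 CPM against 15.6 to 18.3 CPM (2.29, adjusted p = 0.0236). The lactate transporter Slc16a1 (1.46, adjusted p = 0.0143) and the glucose transporter Slc2a3 (2.25, adjusted p = 0.0192) rose. Aldoc (2.76, adjusted p = 0.0431) and Eno2 (3.28, adjusted p = 0.0256), forms used by mature neural cells, rose with their highest levels in tumor 1 and their lowest in tumor 3, which lay below SHH MB for Aldoc. Hk2, the hexokinase raised by SHH signals in GCPs, had 9.67, 69.1, 98.4 and 147 CPM against 188 to 221 CPM. Its log2 fold change of -1.30 did not pass (adjusted p = 0.218), and Ldha had 1.51 (adjusted p = 0.0954).

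In the hypoxia list 3 of 20 genes rose (7 without tumor 1), among them Ak4, a mitochondrial adenylate kinase (2.66, adjusted p = 0.000733), and Bnip3, a mitophagy receptor (2.64, adjusted p = 0.0181). Car9 and Vegfa, general targets of hypoxia, had 0.25 (adjusted p = 0.803) and 0.73 (adjusted p = 0.169). Over all genes tested 2.43% rose (5.91% without tumor 1). Of 30 listed genes of nucleotide, serine and one-carbon synthesis, 2 rose with all tumors, Prps1 (1.23, adjusted p = 0.0159) and Mthfd1l (1.17, adjusted p = 0.0231), and 15 rose and 1 fell without tumor 1. Cad, which opens pyrimidine synthesis, had 56.3, 319, 303 and 450.3 CPM against 115 to 148 CPM, so that tumor 1 lay below SHH MB and the others above (1.11, adjusted p = 0.234).

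Of 11 listed polyamine genes 2 rose (4 without tumor 1). Srm, spermidine synthase, showed the same order as Cad, with 26, 155, 171 and 260.3 CPM against 31.1 to 32.8 CPM (2.26, adjusted p = 0.034), and Odc1, the first enzyme of polyamine synthesis, had 0.69 (adjusted p = 0.432). Asns, asparagine synthetase, was 66.2, 50, 60 and 97.1 CPM against 17.7, 19.2 and 14.1 CPM, a log2 fold change of 2.01 (SE 0.29, adjusted p = 0.00206). Asns was above SHH MB in all tumors and was the one of 20 amino acid stress genes that passed with all tumors (2 rose and 1 fell without tumor 1), and Asns passed under every alternative too. Its inducers Atf4 (0.46, adjusted p = 0.324) and Ddit3 (0.77, adjusted p = 0.181) did not pass, nor did any of 20 aminoacyl-tRNA synthetases with all tumors, while 8 of these did without tumor 1.

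Genes of the Hoxa cluster, which give hindbrain and spinal cord their position and are silent in the cerebellum, were high in tumors 2 to 4. Of 27 listed anterior and central Hox genes 5 rose and none fell (7 and 0 without tumor 1). Rising genes made up 2.43% of all genes tested (5.91% without tumor 1). Hoxa5 (chr6:52178734-52181567, minus strand) had 3.97, 48.2, 63.9 and 29.3 CPM against 1.24, 1.3 and 0.284 CPM, a log2 fold change of 5.24 (SE 0.88, adjusted p = 0.00554). Hoxa9 had 1.49, 50.8, 92.6 and 36.5 CPM against 1.71, 3.06 and 2.13 CPM (4.28, adjusted p = 0.023). Hoxa5 stayed past 0.05 under every alternative. Tumor 1 lay within the range of SHH MB for Hoxa7 and below it for Hoxa9, and tumor 3 was highest for Hoxa5, Hoxa7 and Hoxa9.

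Hoxa3 (2.86, adjusted p = 0.0378), Hoxa4 (3.23, adjusted p = 0.0266) and Hoxa7 (3.78, adjusted p = 0.0193) rose too. Mira, a noncoding RNA of this cluster, had 3, 139, 302 and 191 counts in tumors 1 to 4 and 2, 3 and 1 counts in SHH MB. Its mean CPM in the tumors was at least 48.9-fold higher than the floor of 3 counts per library, with tumor 1 itself at the floor. Genes in the cluster overlap each other, so that their counts are uncertain. Hoxb genes did not pass, although tumor 4 reached 43.9 CPM in Hoxb3 and 12.6 CPM in Hoxb4, against 5.89 to 20.9 and 0.994 to 1.71 CPM in SHH MB. The highest level of a listed Hoxc or Hoxd gene in any tumor was 5.46 CPM, for Hoxc4 in tumor 3.

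Oncofetal genes, active in embryos and again in tumors, varied widely among the tumors. Peg10, an imprinted gene, was the one of 16 that passed with all tumors, while 6 passed as higher without tumor 1. Peg10 had 65.2, 716, 314 and 1267 CPM against 72.5, 71.8 and 84.9 CPM (2.95, adjusted p = 0.0367). H19, an imprinted RNA, had 63.7, 2972, 807 and 167 CPM against 59.2 to 98.9 CPM (3.72, adjusted p = 0.0607), and its neighbour Igf2 had 160.1, 2185, 802 and 178 CPM against 200.1 to 311 CPM (1.67, adjusted p = 0.234). Both were high in tumors 2 and 3. Dlk1, an imprinted Notch-like ligand, had 2.48, 1.8, 5.6 and 118 CPM against 2.95 to 4.51 CPM (3.16, adjusted p = 0.168), and Lin28b, which blocks let-7 microRNAs, had 22.3, 44.3, 10.8 and 239 CPM against 14 to 15.8 CPM (2.38, adjusted p = 0.122). Tumor 4 was the highest in both. Twist1, a mesenchymal factor, had 4.71, 51.1, 54.8 and 9.39 CPM against 1.87, 2.47 and 2.56 CPM (3.70, adjusted p = 0.0174), with tumors 2 and 3 highest.

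**Figure D4:**
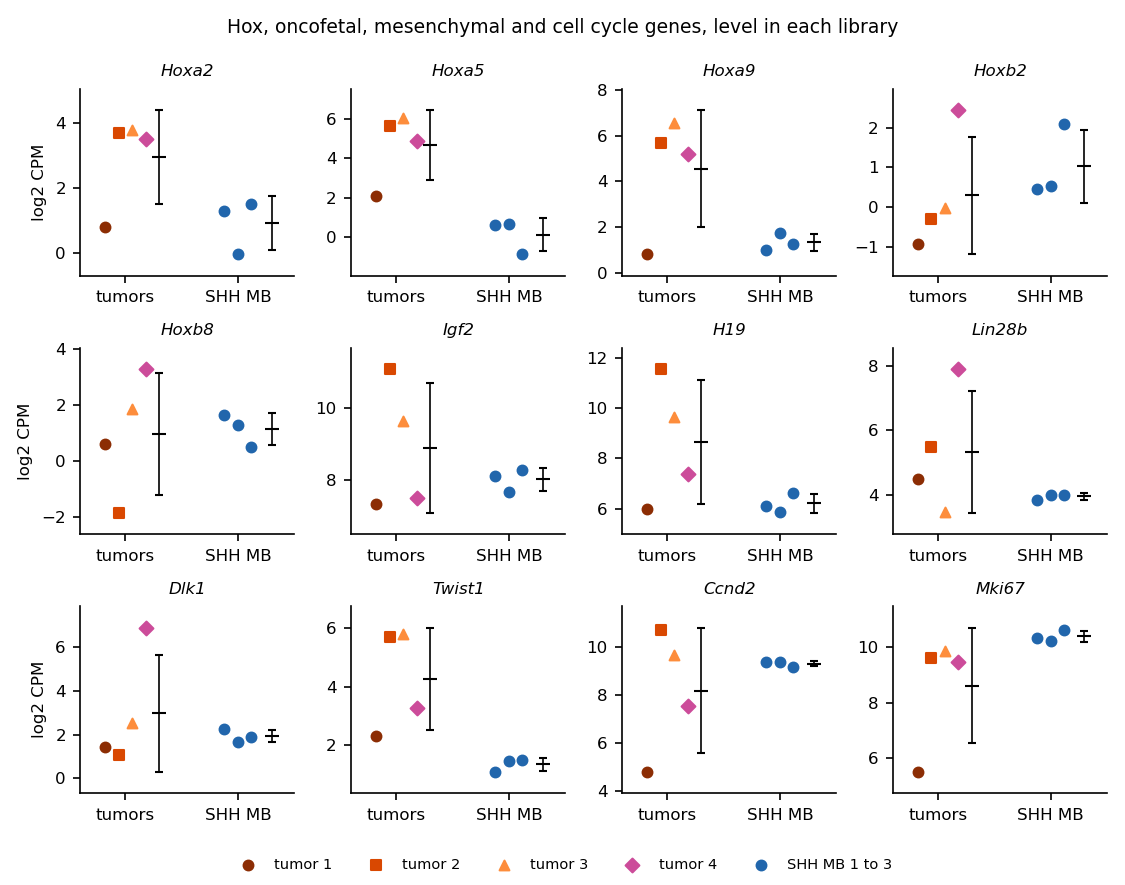
Log2 CPM (y axes) of 12 genes in each library, with tumors 1 to 4 as separate symbols, SHH MB 1 to 3 as blue circles and black bars for mean ± SD (n = 4 and n = 3). Hoxa genes are high in tumors 2 to 4, Igf2, H19 and Twist1 are highest in tumors 2 and 3, Lin28b and Dlk1 in tumor 4, and Mki67 is low in tumor 1.

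Genes of mature granule neurons were higher, with large differences between tumors. Of 16 listed genes of mature granule neurons 9 rose and none fell, with a median of 2.84 (2.17 without tumor 1). Over all genes tested 2.43% rose. Gabra6, a GABA receptor subunit of mature granule neurons, had 387, 175, 15.5 and 78.1 CPM against 2.64, 3.53 and 2.27 CPM, a log2 fold change of 5.84 (SE 0.92, adjusted p = 0.00389). Cbln3, a secreted protein of the same cells, was 1759.5, 462, 42.8 and 226 CPM against 11.2, 10.4 and 5.68 CPM, a log2 fold change of 6.10 (SE 1.05, adjusted p = 0.00666). Slc17a7, the vesicular glutamate transporter, was 352, 308, 70 and 173 CPM against 10.3, 11 and 12.2 CPM, a log2 fold change of 4.34 (SE 0.51, adjusted p = 0.000576). For all 3 genes every tumor exceeded every SHH MB, and the order was tumor 1, 2, 4 and 3. Gabra6 and Slc17a7 stayed past 0.05 under every alternative.

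The same order held for the lists of Purkinje cells, GABAergic interneurons and mature oligodendrocytes. It did not hold for the 17 genes of astrocytes and Bergmann glia, at 5.33, 6.61, 3.92 and 6.07 log2 CPM, or for the genes of microglia and macrophages, where tumor 4 was the highest at 3.86. In the same scale, mean levels in tumors 1 to 4 were 9.09, 7.84, 5.0 and 7.09 log2 CPM for mature granule neurons (4.97 to 5.13 in SHH MB), 8.64, 6.41, 3.80 and 5.90 for Purkinje cells (4.12 to 4.83), 6.99, 5.32, 3.20 and 4.91 for GABAergic interneurons (3.81 to 4.68) and 6.17, 4.43, 2.93 and 3.85 for mature oligodendrocytes (2.77 to 3.71). Tumor 3 lay below or within the range of SHH MB in each. The summed level of the 15 Purkinje genes was 521.8 to 14930 CPM in tumors and 677.5 to 1046 CPM in SHH MB, and that of the 15 oligodendrocyte genes was 171 to 4513 CPM against 184.8 to 477.8 CPM. None of their defining markers was at 0. Of the 15 Purkinje genes 5 rose, against 2.43% of all genes tested, and the median of 2.59 was 0.85 without tumor 1. Calb1 (2.71, adjusted p = 0.164) and Pcp2 (3.18, adjusted p = 0.122), which mark Purkinje cells, did not pass. Pcp2 was 183, 19.4, 2.24 and 13.3 CPM in tumors and 2.84 to 8.72 CPM in SHH MB. The myelin gene Mbp, with 2289, 385, 34 and 174 CPM against 56.1 to 199.6 CPM (2.30, adjusted p = 0.232), showed the same order and did not pass. The part of such cells in the rise of neuronal genes was not tested.

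Among 26 genes of synaptic vesicles and release 6 rose, with Syt2, a calcium sensor (3.58, adjusted p = 0.0205), Vamp1, a vesicle SNARE (3.26, adjusted p = 0.034), and Snap25, its partner on the membrane (3.71, adjusted p = 0.0339). Of 25 voltage-gated channel genes 9 rose and 2 fell. Kcna1, a potassium channel, had 980.2, 582, 179.9 and 178 CPM against 35, 31.8 and 27 CPM, a log2 fold change of 3.94 (SE 0.60, adjusted p = 0.00325). Every tumor was above every SHH MB, under every alternative past 0.05. Kcnip4 rose (4.38, adjusted p = 0.0174), and Cacng4 fell (-2.82, adjusted p = 0.00554). Without tumor 1, the medians of the synaptic and channel lists went from 1.72 to 0.98 and from 1.74 to 0.81. The synaptic list then had 6 genes higher and 1 lower, and the channel list 9 higher and 3 lower. Over all genes tested 2.43% rose and 2.26% fell (5.91% and 3.86% without tumor 1).

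**Figure D5:**
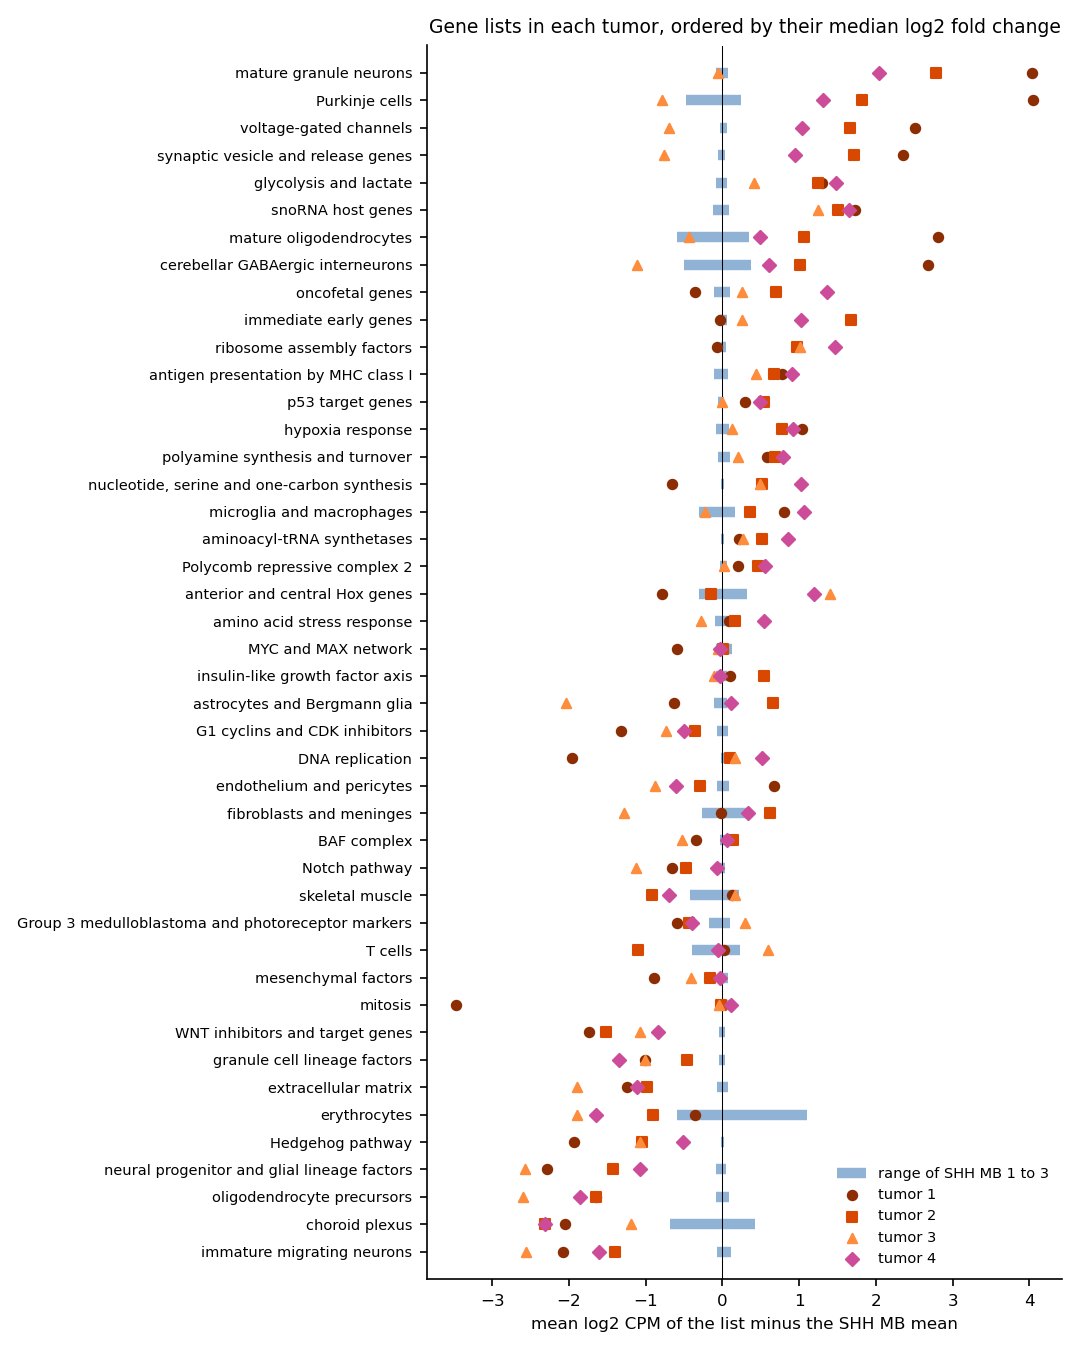
Mean log2 CPM of each of 44 gene lists in each tumor minus the mean of SHH MB (x axis), with lists on the y axis in order of their median log2 fold change, symbols for tumors 1 to 4 and blue bars for the range of the 3 SHH MB. Lists of mature neurons and oligodendrocytes spread widely with tumor 1 highest, mitosis shows tumor 1 far below, and Hedgehog, progenitor and immature neuron lists lie below SHH MB in all tumors.

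Genes of mitosis and DNA replication did not pass the test. With all tumors 0 of 26 and 0 of 27 passed, and without tumor 1 it was 0 and 1. In 7 of the 26 mitosis genes, though, every tumor lay below every SHH MB (8.3% of all genes tested), and in none of the replication genes. Mki67, a nuclear protein of cycling cells, had 45.6, 771, 939 and 712 CPM against 1291, 1192 and 1556 CPM (-1.12, adjusted p = 0.36), and Top2a, which untangles chromosomes, 23.3, 474, 519.8 and 483 CPM against 469, 464 and 554 CPM (-0.40, adjusted p = 0.775). Tumors 2 to 4 were near SHH MB in Top2a and below it in Mki67, and tumor 1 was far below in both.

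Of 20 listed p53 targets 4 rose and 1 fell (7 and 2 without tumor 1), with Pmaip1 (2.30, adjusted p = 0.017), Plk2 (1.31, adjusted p = 0.0378) and Aen (1.01, adjusted p = 0.0469) higher and the receptor Eda2r lower (-2.81, adjusted p = 0.00734). Shares over all genes tested were 2.43% and 2.26% (5.91% and 3.86% without tumor 1). Cdkn1a, the main p53 target in cell cycle arrest, was 69.9, 12.6, 6.3 and 14.6 CPM against 22.2 to 27.8 CPM (0.04, adjusted p = 0.981). Tumor 1 was above SHH MB in Cdkn1a and tumors 2 to 4 below, and without tumor 1 the log2 fold change was -1.17 (adjusted p = 0.0213, 0.0213 to 0.995 over 17 alternatives). Among immediate early genes 3 of 18 rose (10 without tumor 1), Egr1 (2.00, adjusted p = 0.0244), Junb (1.92, adjusted p = 0.017) and Arc (2.54, adjusted p = 0.045). In antigen presentation by MHC class I, H2-K1 was 23.5, 27.2, 11.8 and 44.3 CPM against 4.82, 4.71 and 3.83 CPM, a log2 fold change of 2.58 (SE 0.44, adjusted p = 0.00592), H2-D1 rose as well (2.51, adjusted p = 0.0453), and the other 13 genes tested did not pass (4 rose without tumor 1).

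Within the BAF complex, Smarcd2, an accessory subunit, was the gene that rose, with 73.4, 116, 111 and 76 CPM against 27.1, 24.7 and 24.9 CPM, a log2 fold change of 1.88 (SE 0.27, adjusted p = 0.00192), and Smarca4 was the gene that fell. Smarca2, the alternative ATPase, had 356, 252, 42.8 and 151 CPM against 124 to 156 CPM (0.57, adjusted p = 0.569). No member of Polycomb repressive complex 2 passed with all tumors and 2 of 12 passed as higher without tumor 1, with Ezh2 at -0.63 (adjusted p = 0.297). Of 18 tested genes of the Group 3 MB and photoreceptor list, with all tumors Kcna1 rose and Mab21l2 fell (-1.68, adjusted p = 0.0285). Kcna1 is also in the channel list, and its rise is not read as a Group 3 trait. Otx2 (-0.12, adjusted p = 0.939) and Crx (-0.93, adjusted p = 0.495), both known in human Group 3 MB, did not pass. Otx2 was 12.4, 115, 98.6 and 13.1 CPM in tumors, above SHH MB (57.4 to 71.1 CPM) in tumors 2 and 3 and below in tumors 1 and 4.

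Other cells of the brain were compared by their markers, to be set beside the 2.26% of all genes tested that fell and 2.43% that rose. Choroid plexus genes fell in 4 of 12 cases, with Ttr, its main secreted protein, at 1.98, 0.18, 3.08 and 0.854 CPM against 841, 1192 and 229.5 CPM, a log2 fold change of -8.94 (SE 0.81, adjusted p = 7.62e-05). All tumors were near 0, and SHH MB 3 was well below the other SHH MB. The summed level of the list, which holds Igf2 and Otx2 as well, was 253 to 2353 CPM in tumors and 687.4 to 1627 CPM in SHH MB. No microglia gene passed among 16, and Cx3cr1 was 8.26 to 20.4 CPM in tumors and 8.95 to 19.1 CPM in SHH MB. Of 17 genes of endothelium and pericytes Sox18 (-3.40, adjusted p = 0.000147) and Kdr (-1.12, adjusted p = 0.0197) fell (5 genes fell without tumor 1), and Pecam1 had -0.09 (adjusted p = 0.915). Postn was the fibroblast gene that fell (-1.87, adjusted p = 0.00653). The T cell genes, 10 of which were tested, summed to 41.4 to 107 CPM in tumors and 19.9 to 30.8 CPM in SHH MB. Of these Crtam alone rose, with 89.7, 34.9, 4.9 and 24.2 CPM against 1.7 to 2.64 CPM (4.19, adjusted p = 0.00967). It is also expressed by Purkinje cells, and Trac, Trbc1 and Trbc2 had no count in any of the libraries compared. Hba-a2 (-4.88, adjusted p = 0.00136) and Myod1 (-3.63, adjusted p = 0.00196) were lower, among 7 erythrocyte and 11 muscle genes, while Hba-a1, which is nearly identical to Hba-a2 so that the split of their reads is uncertain, had 0.02 (adjusted p = 0.992).

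Further genes among the largest or most certain calls belonged to no list. On the higher side, Fam107a, an actin-binding stress protein, had 148, 241, 43.8 and 243 CPM against 5.76, 2.83 and 4.26 CPM, a log2 fold change of 5.31 (SE 0.59, adjusted p = 0.000369). Atoh7, the relative of Atoh1 that specifies retinal ganglion cells, had 12.1, 32.9, 13.2 and 14.4 CPM against 1.24, 2.0 and 0.426 CPM, a log2 fold change of 3.85 (SE 0.55, adjusted p = 0.00202). All 4 tumors lay above SHH MB in Atoh7 and below SHH MB in Atoh1. Sik1 (2.75, adjusted p = 0.00076), a kinase induced by cAMP, Cdr1 (3.96, adjusted p = 0.00597), Slc24a2 (3.29, adjusted p = 0.00559), Ankrd34a (2.88, adjusted p = 0.000497), Jade2 (2.78, adjusted p = 0.00144), Lingo3 (2.78, adjusted p = 0.00171) and Ipcef1 (3.67, adjusted p = 0.00786) rose as well, and so did Snord3a, the U3 snoRNA that guides rRNA processing (3.50, adjusted p = 0.0057). U3 is encoded by near-identical copies, so that its counts are uncertain.

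On the lower side, Adgrg1, an adhesion receptor for collagen in the developing cortex, was 23.1, 23.8, 17.8 and 22.2 CPM against 264, 265 and 297 CPM, a log2 fold change of -3.66 (SE 0.24, adjusted p = 1.46e-05). The 4 tumors lay within a narrow range in this gene. Pdlim3 (-4.61, adjusted p = 0.000155), Chrna3, a nicotinic receptor subunit (-4.60, adjusted p = 5.10e-05), Cdh20, a cadherin (-4.33, adjusted p = 1.72e-05), Hsd11b2, which inactivates glucocorticoids (-4.23, adjusted p = 0.000147), and Tbata (-4.20, adjusted p = 1.86e-05) fell by more than 4 on the log2 scale. Each of these lower genes stayed past 0.05 under every alternative.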

How the data were processed

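RNA from FFPE tissue was depleted of ribosomal RNA and sequenced from total RNA libraries. Per the submitters' processing notes, FastQC 0.73, Trimmomatic 0.38.1, STAR 2.7.8a on GRCm39 and featureCounts 2.0.1 were used by the authors, and the raw read counts per gene that they deposited, 1 file per library, are the values tested here. The strand setting and gene annotation of the counting are not given in the sources used here. A deposited table of variance-stabilized values on the log2 scale, made by the authors with DESeq2, served for 1 alternative. Deposited tables of the authors' own comparisons were not used.

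Counts of all 10 libraries were fitted with a mean per group in edgeR 4.0.16 (R 4.3.3), with TMM factors, filterByExpr, the quasi-likelihood test, the contrast of MYC/SMARCA4 tumors minus SHH MB and Benjamini-Hochberg adjustment over all genes tested. Standard errors were the log2 fold change divided by the square root of F. Log2 CPM used a prior count of 2. DESeq2 1.42.0 and limma 3.58.1 were alternatives, along with other scalings, filters on low counts and sets of libraries, 17 in all. The script was tested on simulated data. Counting noise alone was exceeded between all pairs of replicates. Depth sets the floors given with the results, which cover counting error only. Positions were matched by symbol to GENCODE on GRCm39 for 40303 genes.

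The comparison, the naming rule and 44 gene lists, with 847 distinct genes of which 840 were tested, were chosen with earlier results of these data known. The rule took the altered genes, genes named by the study, the 15 largest changes and the 10 lowest p-values per direction among called genes with groups that do not overlap, at least 30 counts on average in the higher group and an established symbol, and of each list its first 2 genes and the 4 largest changes past an adjusted p of 0.05. It gave 197 genes, of which 152 are named, and some genes are not reported here. The other 65 named genes, most of them listed, were chosen after their values were seen.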

Additional observations from a re-analysis of the deposited data

Results flagged for a closer look

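Across 217 named genes and the means of 44 gene lists, the 4 tumors were searched for a single library far from the other 3, measured as its gap to the nearest tumor divided by the range of all 4 (Dixon's ratio, tested against its 95% critical value). It was exceeded in 15 of the 217 genes and 3 of the 44 lists, and chance alone gives about 1 in 20. Both shares are not far above that of chance, and the excess was not tested. The named genes were also chosen in part by their values and are not a neutral set. Single cases below are therefore given as a description. Tumor 1 was the distant library in 12 of these 18 cases.

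Tumor 1 was the low one for the lists of mitosis (ratio 0.9554), the MYC and MAX network (0.9000) and DNA replication (0.8306). The same held for Top2a (0.9700), with 4.56 log2 CPM against 8.89 to 9.02 in tumors 2 to 4, for Mki67 (0.9084) and for Smo (0.9687), the receptor of the Hedgehog signal. It held also for the factor Meis2 (0.9516) and, in the Hoxa cluster, for Hoxa3 (0.8764) and Mira (0.8419).

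Tumor 1 was the high one for Eln (0.9808), Pdlim3 (0.9433) and the endothelial adhesion protein Pecam1 (0.9076), which had 5.51 log2 CPM against 4.06 to 4.19. Tumor 2 was highest apart for C1ql1 (0.8436) and Atoh7 (0.8309). Tumor 3 was lowest apart for Nav1 (0.9284) and Max (0.8291) and highest apart for Hsd11b2 (0.8698). Tumor 4 was highest apart for Heyl (0.8973). What sets these libraries apart was not tested.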

How the results depend on the processing

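Counts of genes depended on the choices more than directions did. The 37 genes called higher became 338 with DESeq2, 135 with no filter on low counts, 7 with the 7 libraries alone, 19 with the replicate block and 6 to 280 when 1 library was left out. The 143 called lower became 71 with the 7 libraries alone and 85 to 403 with 1 library left out. At an adjusted p of 0.05, the 727 higher genes became 2014 with DESeq2, 387 with limma, 88 with the 7 libraries alone, 231 with the replicate block, 431 with total counts and 54 to 2750 with 1 library left out. The 676 lower genes became 1048, 300 and 400 with DESeq2, the 7 libraries alone and the replicate block, and 257 to 3979 with 1 library left out. With 1 library left out, the highest counts came without tumor 3 and the lowest without SHH MB 3, and the cause was not tested.

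Myc stayed past 0.05 under all 17 alternatives (adjusted p 2.15e-11 to 0.0368). The log2 fold change of Smarca4 kept its direction, ranged from -1.54 to -1.33 with 1 library left out, and missed 0.05 with the 7 libraries alone (-1.46, adjusted p = 0.0585), with the replicate block (-1.49, adjusted p = 0.0686) and without SHH MB 1, 2 or 3 (adjusted p 0.0824 to 0.122). Of 154 other named genes past 0.05, all kept their direction and 72 stayed past it under every alternative. Leaving out SHH MB 1, 2 or 3 moved 74, 73 and 80 of them above 0.05, the 7 libraries alone 72, the replicate block 48, limma 31 and the loss of tumor 2 33. The log2 fold change of Cdkn1a, 0.04 with all tumors, turned to -1.17 without tumor 1 and reached 0.27 without tumor 2. Medians of 11 of 44 lists changed sign under some alternative, none of them above 0.362 in size at first.

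Deviations of tumors and SHH MB with the same number correlated at -0.047, -0.098 and -0.274, so that the numbers do not pair the libraries. With 3 SHH MB and 5663491 to 9352109 reads per library, small changes and genes near the floor of 3 counts could not be resolved.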

Other observations

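Further members of the lists passed the test. Among genes of mature granule neurons, the delta subunit of the GABA receptor, Gabrd, had 169.8, 27, 5.18 and 12.9 CPM in tumors 1 to 4 and 2.8, 3.89 and 1.56 CPM in SHH MB 1 to 3 (4.26, adjusted p = 0.0337), and the calcium sensor Vsnl1 had 564, 204, 16.1 and 106 CPM against 6.07, 11.2 and 12.5 CPM (4.48, adjusted p = 0.0157). Both were highest in tumor 1 and lowest in tumor 3. The glutamate receptor genes Grin2c (3.54, adjusted p = 0.0232) and Grm4 (2.29, adjusted p = 0.0367) rose as well. Sodium channel genes went both ways, with Scn2a (2.80, adjusted p = 0.0307), Scn2b (3.43, adjusted p = 0.0124) and Scn4b (3.48, adjusted p = 0.028) higher, while Scn3a, the form of the immature brain, was 18.8, 20.7, 10.9 and 22.2 CPM against 33.6 to 44.7 CPM and fell (-1.10, adjusted p = 0.0369). Pvalb, a calcium buffer of Purkinje cells, interneurons and muscle fibres, was the one gene that rose in both the interneuron and the muscle list, with 573, 107, 8.4 and 53.1 CPM against 1.7 to 10.7 CPM (4.77, adjusted p = 0.0351). The lipid raft protein Mal was the one of 15 genes of mature oligodendrocytes that rose (4.31, adjusted p = 0.0178).

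Among the genes that fell, the matrix list held the elastin crosslinker Loxl1, with 9.17, 8.64, 4.76 and 5.73 CPM against 69.2, 83.2 and 82.5 CPM (-3.48, adjusted p = 6.29e-05), the laminin chain Lama5 (-2.60, adjusted p = 0.000273), the metalloprotease Mmp14 (-2.85, adjusted p = 0.000278) and Smoc1, a secreted BMP antagonist (-3.01, adjusted p = 0.0016). Sox8, a relative of Sox9 in glia, had 10.2, 16, 7.0 and 11.2 CPM against 64.3, 63.5 and 78.4 CPM (-2.63, adjusted p = 0.000308). Apcdd1, a membrane inhibitor of WNT, fell too (-2.33, adjusted p = 0.00286), as did Rnd3, a GTPase for migration of neurons (-2.67, adjusted p = 0.019). All 4 tumors lay below all 3 SHH MB in Loxl1 and Sox8. Fabp4, a fatty acid carrier, had 1.49, 120.2, 12.7 and 6.34 CPM against 0.284 to 0.778 CPM (5.96, adjusted p = 0.0295). Tumor 2 was far above the other tumors, and the SHH MB lay near the floor of 3 counts. The log2 fold change of Fabp4 ranged from 2.93 to 6.35 over 13 alternatives, and its adjusted p exceeded 0.05 in 5 of them.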
